A study of Astyanax mexicanus with 8 samples.

Results

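Spheroids of the CFL cell line were compared with spheroids of the SFL cell line at the lower seeding densities of the series, 10000 and 25000 cells per well. The members are 4 of the 8 libraries, chosen by their titles alone: 2 of CFL and 2 of SFL. The other 4 libraries, seeded at 50000 and 100000 cells, are called large spheroids here and serve to ask where the small ones differ. Both lines are liver-derived and come from Astyanax mexicanus, the Mexican tetra, which has cave-dwelling and surface-dwelling forms. CFL is the cave line, which the titles call Pachon, and SFL is the surface line. All 4 groups carry the genotype label WT, and all were kept at 27C for 28 days as free-floating aggregates in round-bottomed wells whose surface cells cannot grip. The labels name no added agent. Each form is represented by 1 line, so a difference between CFL and SFL cannot be assigned to cave or surface origin.

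Cells grown without attachment gather into a spheroid, in which inner cells sit farther from oxygen and medium than outer ones, and more cells make a larger aggregate. Liver is built from hepatocytes, which make plasma proteins, lipids and bile acids, together with bile duct cells, vitamin A-storing stellate cells, endothelium and resident leukocytes. Lines grown from liver can descend from any of these, and hepatocyte genes are often lost in culture. Cavefish of the Pachon cave are known for fatty livers, high blood sugar, low metabolic rate and an altered circadian rhythm, which is the setting in which such lines are studied.

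Expression was given as TPM, a level per transcript length with the same total in every library. It can be compared between genes but keeps no depth, so the depth behind a value is unknown. Throughout, a pair of CFL values or a pair of SFL values stands in the order 10000 then 25000 cells. Differences are CFL minus SFL of log2(TPM + 1), a measure in which low genes appear to change less than they do. They were tested with limma at a Benjamini-Hochberg adjusted p of 0.05. A gene that passed is called higher or lower in CFL. Roles named for genes are those known mainly from mammals and zebrafish. The table lists 27420 genes, of which each library had between 18374 and 19408 with any expression. The 10 most abundant genes held 15.3% and 15.7% of all TPM in CFL, against 11% and 11.7% in SFL.

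The lines differed across most of the transcriptome, and the seeding density changed little by comparison. Of 14024 genes with a mean of at least 1 TPM over the 4 libraries, 9023 (64.3%) were called, 4370 (31.2%) higher in CFL and 4653 (33.2%) lower. The shares of 31.2% and 33.2% are the background for list counts below that rest on all tested genes of this fit. For counts at 1 TPM or more in both lines it is 28.3% higher and 31.6% lower of 12090 genes. Counts with another filter, another scaling or 1 library left out have a background of their own, to which these shares do not apply. On the log2(TPM + 1) scale, at least 2-fold were 2126 of the higher and 2200 of the lower genes, and at least 10-fold 264 and 336. Calls of at least 2-fold were 4326 in all, and 4895 with a pseudocount of 0.1. Fewer calls were made when 1 CFL library was left out: 5885 in all and 2672 higher without the CFL library of 10000 cells, and 5849 and 2666 without that of 25000 cells (written below as without CFL 10000 or without CFL 25000, and likewise for SFL). The line that loses a library is then 1 sample, assumed to vary like the other line, and the residual degrees of freedom are 1 in place of 2. The same is given for a list or a gene where it moved the count by over 1.5 times or lost the call. The values of the lines did not overlap for any called gene, nor for 83.6% of all tested genes. A root mean square log2 difference of 0.27 separated the CFL libraries from each other, and 0.32 the SFL libraries, against 1.43 to 1.45 for the 4 pairings of a CFL with an SFL library. Genes at least 2-fold apart numbered 109 between the CFL libraries, 183 between the SFL libraries and 4440 to 4455 between lines. As the 10000 and 25000 cell libraries of a line take the place of replicates, the spread behind each p-value holds the effect of density, and the labels name no separate cultures behind it. An exact permutation test of 2 against 2 libraries cannot go below p = 0.333, so single genes were judged by the fit across all genes only.

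**Figure D1:**
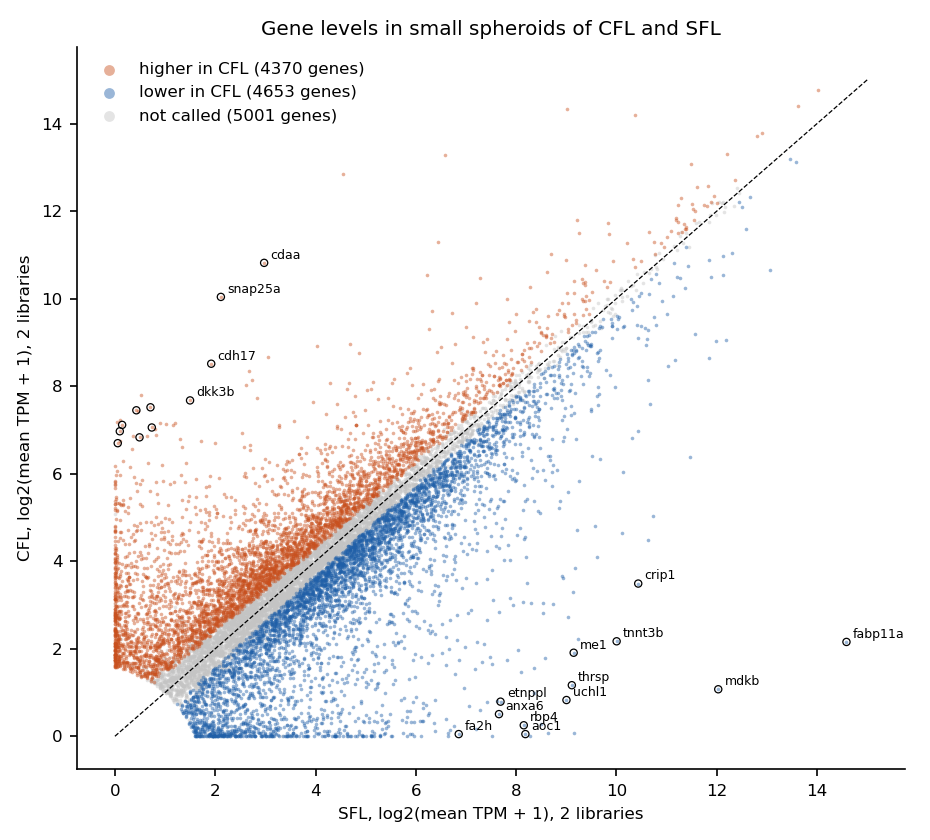
Level of each of the 14024 tested genes in small CFL spheroids (vertical axis) against small SFL spheroids (horizontal axis), both as log2(mean TPM + 1) over 2 libraries. Orange points were called higher in CFL (4370), blue points lower (4653) and grey points not called; open circles mark the genes with the largest differences in each direction that are named in the text, with names where they do not collide.

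Genes close to silent in 1 line and abundant in the other were found in both directions. At least 10 TPM in both CFL libraries went with under 0.5 TPM in both SFL libraries for 122 of the 27420 listed genes. The reverse held for 145. The genes fabp11a and mdkb, given next, were above 0.5 TPM in CFL and are not among the 145. Fatty acid binding protein gene fabp11a (ENSAMXG00000037422) was the most abundant of all genes in SFL: 2.46 and 4.45 TPM in CFL, against 23532 and 25655 TPM in SFL, a difference of -12.47 in log2 units (SE 0.212, limma adjusted p = 4.08e-06). By mean TPM it ranked 10926 in CFL and 1 in SFL. The midkine growth factor gene mdkb (ENSAMXG00000042887) stood at 1.06 and 1.15 TPM in CFL, against 3750.3 and 4609.8 TPM in SFL, a difference of -10.95 (SE 0.12, limma adjusted p = 2.97e-06). As both genes were chosen for a large difference without overlap, a wide gap between the lines was given by that choice. The low fabp11a values in CFL differed (2.46 and 4.45 TPM).

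The other large differences below 0 were as follows. Lipogenesis regulator thrsp had 0.41 and 2.08 TPM in CFL, against 529 and 574 TPM in SFL. The cytosolic malic enzyme gene me1, whose product yields NADPH, had 2.42 and 3.09 TPM in CFL, against 535 and 596 TPM in SFL. Retinol carrier rbp4 had 0.18 and 0.20 TPM in CFL, against 263 and 304 TPM in SFL. These 3 genes were abundant in both SFL libraries and low in both CFL libraries, at 3.09 TPM or less. The diamine oxidase gene aoc1 was at 0.06 and 0.01 TPM in CFL, against 239 and 341 TPM in SFL. A ubiquitin hydrolase best known from neurons, uchl1, was at 0.59 and 0.96 TPM in CFL, against 507 and 517 TPM in SFL. Fast muscle troponin gene tnnt3b was at 3.86 and 3.14 TPM in CFL, against 869.6 and 1181 TPM in SFL. The LIM protein gene crip1 was at 11.1 and 9.35 TPM in CFL, against 1368 and 1397 TPM in SFL. For anxa6, a membrane-binding annexin, the values were 0.59 and 0.25 TPM in CFL, against 243 and 159 TPM in SFL, with the higher SFL value at 10000 cells. The phospholyase gene etnppl (0.51 and 0.95 TPM in CFL, against 189 and 221 TPM in SFL) and the fatty acid hydroxylase gene fa2h (0 and 0.07 TPM in CFL, against 114 and 116 TPM in SFL) complete the 12, whose log2 differences ran from -12.47 to -6.81.

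On the CFL side, the pyrimidine salvage enzyme gene cdaa (ENSAMXG00000034539), cytidine deaminase, had 2017 and 1590.1 TPM in CFL, against 4.08 and 9.65 TPM in SFL, a difference of 7.93 in log2 units (SE 0.345, limma adjusted p = 2.97e-05). Vesicle fusion gene snap25a (ENSAMXG00000009864), a SNARE of regulated secretion, had 1100.1 and 1003 TPM in CFL, against 3.32 and 3.33 TPM in SFL, a difference of 7.93 (SE 0.09, limma adjusted p = 2.97e-06). The CFL libraries were high in both cases, and the 4 values of snap25a were the tighter set. Hormone genes pthlha, the parathyroid hormone-related peptide (191 and 173 TPM in CFL, against 0.85 and 0.42 TPM in SFL), and lepa, a leptin (124 and 139.9 TPM in CFL, against 0.87 and 0.46 TPM in SFL), were in the same group. So were the neutral amino acid transporter slc1a4 (136 and 139.6 TPM in CFL, against 0 and 0.21 TPM in SFL), the nicotinic receptor subunit chrnb5b (134 and 114 TPM in CFL, against 0.01 and 0.13 TPM in SFL) and the cadherin cdh17 (338 and 391 TPM in CFL, against 1.46 and 4.11 TPM in SFL).

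Retinoic acid carrier crabp2b had 121 and 105 TPM in CFL, against 0.16 and 0.65 TPM in SFL. A relative of the Wnt pathway scaffold APC, apc2, had 183 and 164 TPM in CFL, against 0.40 and 0.29 TPM in SFL. The secreted dickkopf family gene dkk3b had 229.6 and 177 TPM in CFL, against 2.9 and 0.75 TPM in SFL, with most of its spread in SFL. The homeobox gene pax6a is given with the transcription factors. Log2 differences of these 11 genes ran from 6.28 to 7.93.

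**Figure D2:**
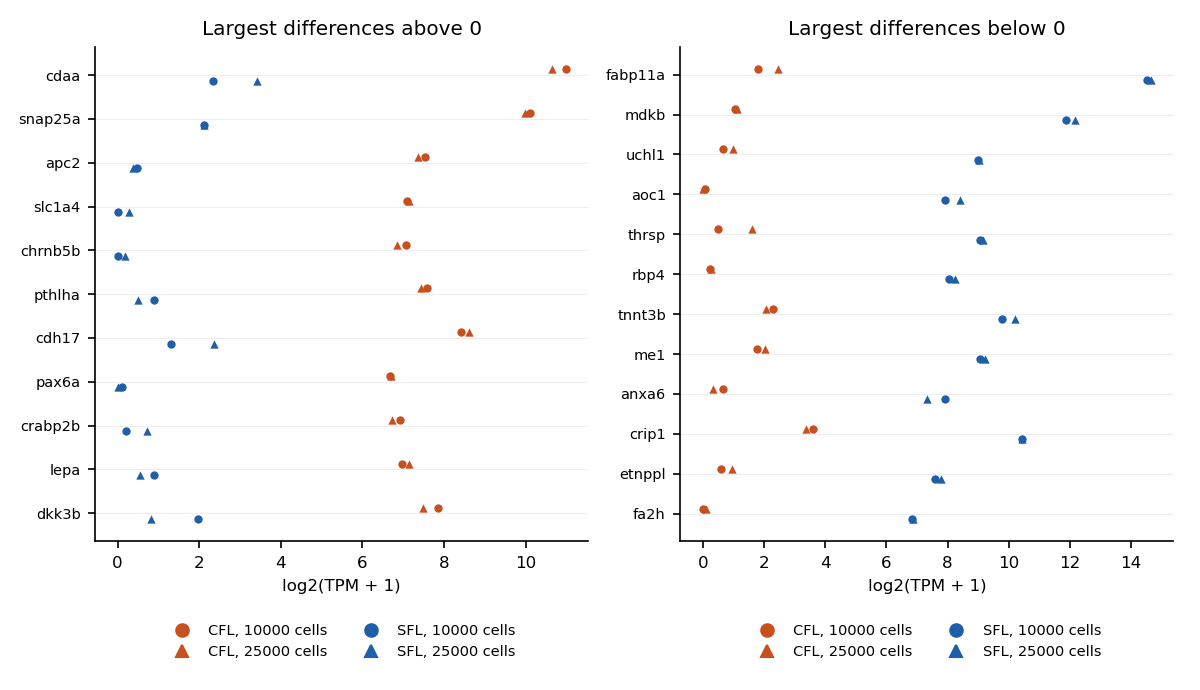
Values of 11 genes with large differences above 0 (left) and of 12 below 0 (right) in each of the 4 small spheroid libraries, as log2(TPM + 1). Orange marks CFL and blue SFL, circles 10000 and triangles 25000 cells. The genes were chosen for large differences without overlap, so CFL and SFL points lie apart in every row. Differences ran from -12.47 (fabp11a) to 7.93 (cdaa).

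The top of the abundance ranking was partly shared. Ferritin heavy chain gene fth1b, which stores iron, was at 28504 and 27175 TPM in CFL, against 15819 and 17537 TPM in SFL. The actin-binding thymosin gene tmsb4x was at 19657 and 23892 TPM in CFL, against 13398 and 11894 TPM in SFL. They ranked 1 and 2 in CFL, and 2 and 3 in SFL. The call of tmsb4x was lost without SFL 25000 (limma adjusted p = 0.0534) and after quantile normalization (limma adjusted p = 0.137). The autophagy receptor gene sqstm1 (ENSAMXG00000011526), whose product can also free the antioxidant factor Nrf2 from its inhibitor, was rank 4 in CFL and 123 in SFL: 19636 and 17762 TPM in CFL, against 1189.7 and 1468 TPM in SFL, a difference of 3.82 in log2 units (SE 0.118, limma adjusted p = 1.22e-05). A pair of genes for which the table gives an identifier and no name, ENSAMXG00000041826 and ENSAMXG00000033597, ranked 3 and 8 in CFL against 300 and 1438 in SFL. The first was at 20161 and 21309 TPM in CFL, against 519.7 and 515 TPM in SFL. The second was at 9479 and 10341 TPM in CFL, against 80.95 and 109.6 TPM in SFL.

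Cystatin gene cst3, a secreted protease inhibitor, was rank 94 in CFL and 6 in SFL (1667 and 1569.5 TPM in CFL, against 7978 and 9095 TPM in SFL). The glutathione transferase gene GSTP1 was rank 51 in CFL and 10 in SFL (3175 and 3029.9 TPM in CFL, against 5458 and 6765 TPM in SFL). Ribosomal protein genes filled much of the rest. Of these, rps24 was at 14258 and 14045 TPM in CFL, against 7194 and 8029 TPM in SFL. The next, rpl39, was at 13902 and 12896 TPM in CFL, against 6674 and 7561 TPM in SFL, and RPL27A was at 10326 and 9868 TPM in CFL, against 4846 and 4641 TPM in SFL. The same ribosomal direction was not general: rps15a was lower in CFL (5299.9 and 4932 TPM in CFL, against 6364 and 6672 TPM in SFL), as was ybx1, an RNA-binding protein gene (8207 and 9488 TPM in CFL, against 11826 and 12500.0 TPM in SFL), and tpt1, a growth-linked calcium binder (4329 and 4432 TPM in CFL, against 5838 and 5811 TPM in SFL). Further ribosomal genes among the 10 most abundant named genes of CFL were rpl36a (6104 and 6129 TPM in CFL, against 3538 and 3668 TPM in SFL) and rps19 (6015 and 5991 TPM in CFL, against 3191 and 3040.3 TPM in SFL). The actin-severing gene cfl1, cofilin, was also there (6853 and 6636 TPM in CFL, against 5204 and 5407 TPM in SFL). These nearest pairs were the least firm: the call of rps15a was lost without SFL 10000, SFL 25000 or CFL 25000 (limma adjusted p = 0.059, 0.0811 and 0.0628) or with no filter (0.0512), that of ybx1 without SFL 10000, SFL 25000 or CFL 10000 (0.0687, 0.09 and 0.0504) or with no filter (0.0507), and that of cfl1 without SFL 10000 or CFL 10000 (0.0676 and 0.0522) and after quantile normalization (0.0617).

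The liver label was checked against marker lists. Of 39 listed hepatocyte marker genes only 17 were tested, 2 higher and 12 lower in CFL. Listed at 0 in all 4 libraries were 5 of the 39: fabp10a, ttr, fetub, apoea and serpind1. A further group stayed under 1 TPM in every library, 19 of the 39 in all, including the prothrombin gene f2 and the plasminogen gene plg. At the other end, a mean of at least 5 TPM was reached by 6 of the 39 in CFL and 10 in SFL. Summed over the list, hepatocyte marker TPM was 1479 and 1823 in CFL, against 7552 and 6728 in SFL, most of it from apoeb (1315 and 1653 TPM in CFL, against 4783 and 4105 TPM in SFL), a lipid carrier that many cell types make. Because a gene that is silent in CFL passes the filter through SFL alone, the counts were also taken among genes with a mean of at least 1 TPM in both lines. There 7 of 12 hepatocyte markers were lower and 2 higher, beside 31.6% lower and 28.3% higher of all 12090 such genes.

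Several of the named hepatocyte genes were lower in CFL. The apolipoprotein gene apoc2 had 21.5 and 26.3 TPM in CFL, against 1108 and 1091 TPM in SFL. Haptoglobin gene hp had 0 and 0.19 TPM in CFL, against 28.9 and 27.6 TPM in SFL, and fibrinogen chain fgb had 1.73 and 2.61 TPM in CFL, against 39.4 and 34.3 TPM in SFL. The gluconeogenesis gene pck1 had 0.60 and 0.23 TPM in CFL, against 42.98 and 44.8 TPM in SFL. In the other direction, the urea cycle enzyme gene cps1 had 18.9 and 15.4 TPM in CFL, against 4.29 and 4.55 TPM in SFL. The vitamin E carrier gene ttpa had 30.2 and 24.7 TPM in CFL, against 21.5 and 17.9 TPM in SFL. The call of ttpa was lost without any 1 of the 4 libraries (limma adjusted p = 0.0727 to 0.232), in the fit of all 8 libraries (0.148), with no filter (0.0737) and without trend (0.0519). In the hepatocyte list, the higher count was 1 without CFL 10000 or CFL 25000. In bulk RNA, fewer cells of a type and less RNA per cell cannot be told apart.

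Bile duct genes split evenly, 6 higher and 6 lower of 12 tested, with 4 higher and 5 lower of the 9 at 1 TPM or more in both lines. The cadherin cdh17 was named above, and the osteopontin gene spp1 (105 and 136 TPM in CFL, against 5.12 and 4.52 TPM in SFL) and sox9a, a transcription factor of duct and progenitor cells (31.8 and 30.2 TPM in CFL, against 0.96 and 1.03 TPM in SFL), were also higher in CFL. Simple-epithelium keratins were lower: a gene listed as krt8, a name with more than 1 entry, had 420.1 and 646 TPM in CFL, against 4781 and 4518 TPM in SFL. Its partner krt18b had 349.5 and 453 TPM in CFL, against 3398 and 3967 TPM in SFL, and tm4sf4, a membrane protein of the tetraspan type, had 3.57 and 3.01 TPM in CFL, against 187 and 138 TPM in SFL. The epithelial list held 18 tested genes, 4 higher and 8 lower, with 2 higher and 7 lower of the 15 at 1 TPM or more in both lines. In the epithelial list, the higher count was 2 without CFL 10000. Keratin gene krt4 was at 66.3 and 97.3 TPM in CFL, against 2808 and 2833 TPM in SFL and the desmosomal jupa at 57.6 and 53.5 TPM in CFL, against 276 and 226 TPM in SFL. Tight junction gene tjp3 was at 7.27 and 9.76 TPM in CFL, against 0.03 and 0.11 TPM in SFL, higher in CFL, and the scaffold tjp1b was not called (10.6 and 10.9 TPM in CFL, against 12 and 10.8 TPM in SFL).

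Stellate and fibroblast markers pointed both ways as well, with 8 higher and 7 lower of 17, and 7 higher and 4 lower of the 13 at 1 TPM or more in both lines. Smooth muscle actin gene acta2, the usual sign of an activated stellate cell, was at 0.19 and 0.45 TPM in CFL, against 94.1 and 98.1 TPM in SFL. The gene lrata, whose product stores retinol as ester, was at 0 and 0.02 TPM in CFL, against 6.41 and 8.94 TPM in SFL. The mesothelial and stellate factor wt1b was at 2.14 and 3.18 TPM in CFL, against 42.4 and 28.3 TPM in SFL. These were SFL genes. Platelet-derived growth factor receptor genes pdgfra (20.4 and 19.5 TPM in CFL, against 0.25 and 0.17 TPM in SFL) and pdgfrb (10.6 and 10.1 TPM in CFL, against 1 and 1.16 TPM in SFL), the mesenchymal collagen col5a2a (114 and 87.6 TPM in CFL, against 5.05 and 5.8 TPM in SFL) and fibronectin fn1a (3245 and 2549.9 TPM in CFL, against 707 and 518 TPM in SFL) were higher in CFL. Collagen col1a2 was not called (175 and 184 TPM in CFL, against 181 and 142 TPM in SFL), except without SFL 10000 (limma adjusted p = 0.0462) or after quantile normalization (0.0265). Among contractile genes, 7 of 12 were lower in CFL and 3 higher, with only 1 higher and 2 lower of the 5 at 1 TPM or more in both lines. The atrial light chain myl7 was at 0 and 0.03 TPM in CFL, against 27.02 and 48.6 TPM in SFL. The tropomyosin tpm2 was at 138 and 118 TPM in CFL, against 17.1 and 26.4 TPM in SFL.

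Markers of other liver cell types were mostly near 0. Only 4 of 21 endothelial, 5 of 26 leukocyte and 2 of 10 red cell markers were tested. Of these, 2 leukocyte markers were higher and 3 lower, and 1 red cell marker was called each way. At 1 TPM or more in both lines were only 1 leukocyte marker, called higher, and 1 red cell marker, called lower. All 4 endothelial ones were lower in CFL, and with no filter 1 endothelial gene was higher. Only 2 of the 4 were at 1 TPM or more in both lines, the VEGF receptors kdr and kdrl. The others passed the filter through SFL alone. Values of kdr were 2.85 and 3.16 TPM in CFL, against 104 and 96.8 TPM in SFL. Those of kdrl were 28 and 29.2 TPM in CFL, against 89.6 and 84.9 TPM in SFL. Of the 21, 16 stayed under 1 TPM in all 4 libraries and cldn5b and egfl7 were listed at 0. Summed endothelial marker TPM was 32.5 and 34.4 in CFL and 201 and 189.7 in SFL. Leukocyte lineage factor irf8 was at 0.43 and 0.72 TPM in CFL, against 9.13 and 12.3 TPM in SFL. The leukocyte integrin itgb2 was at 60.1 and 55.2 TPM in CFL, against 28.5 and 28.7 TPM in SFL, whereas lyz, mpx, laptm5, c1qa and c1qc were at 0 throughout. Summed leukocyte marker TPM was 64.3 and 59.7 in CFL and 47.5 and 56.9 in SFL. Of 36 listed neuronal and secretory genes, 6 were tested, 2 higher and 2 lower, with 1 higher and 1 lower of the 3 at 1 TPM or more in both lines. Besides snap25a and uchl1, the vesicle calcium sensor syt5a was called, at 7.07 and 9.24 TPM in CFL and listed at 0 in both SFL libraries, and 28 of the 36 stayed under 1 TPM in all 4. In the leukocyte list, the higher count was 1 without CFL 10000 or CFL 25000. In the neuronal list, the lower count was 1 without CFL 10000 or CFL 25000.

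**Figure D3:**
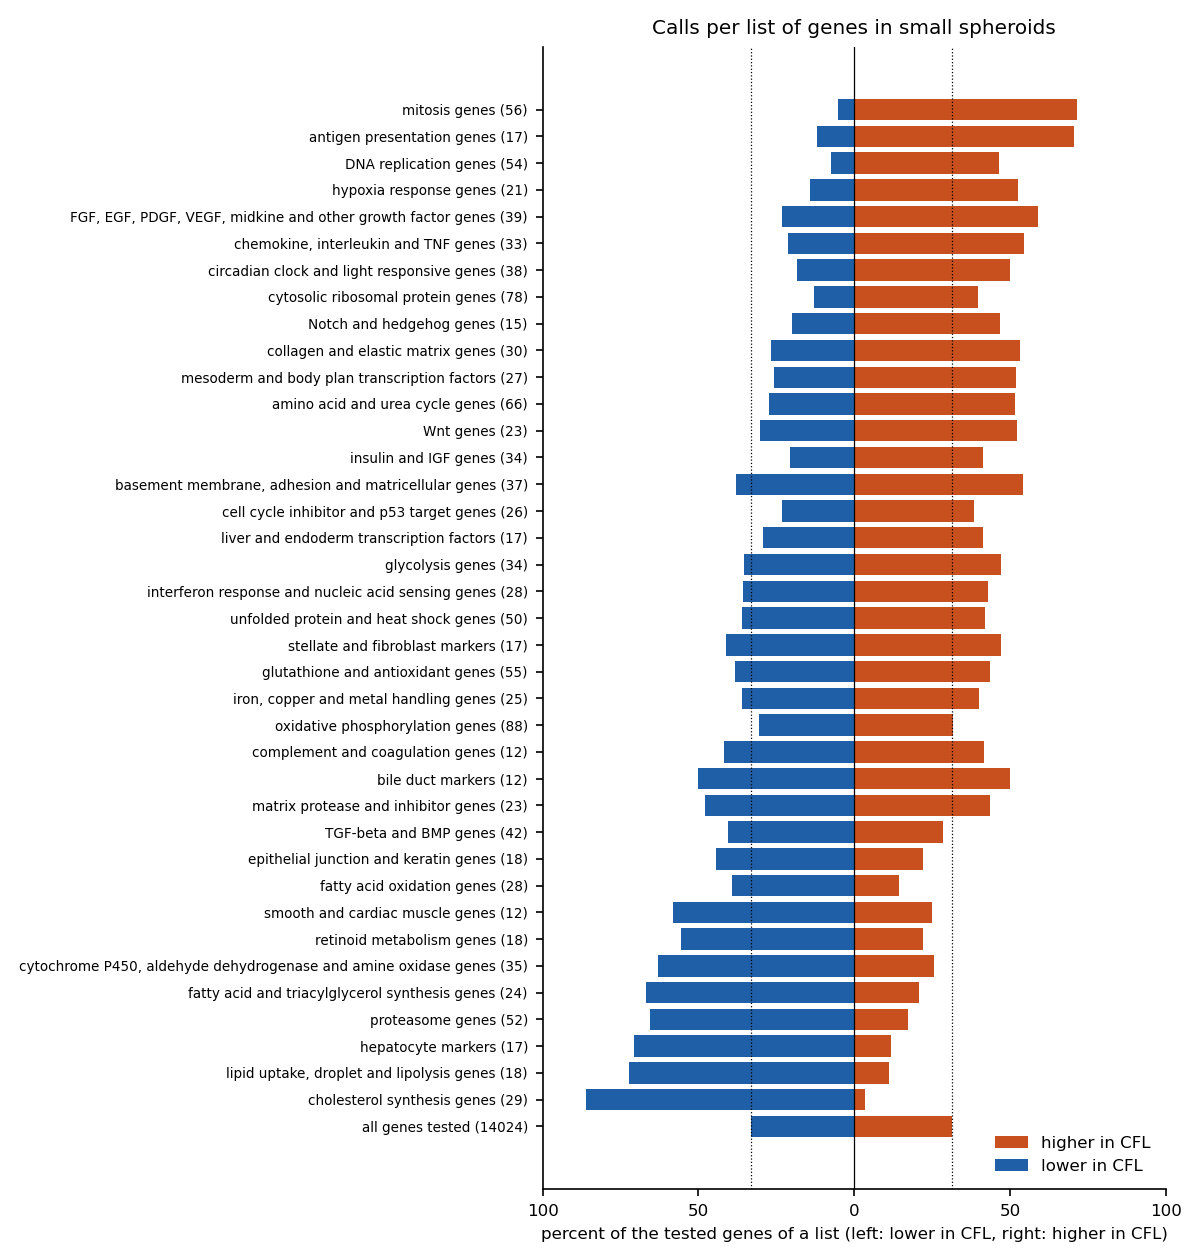
Percent of the tested genes of each list called higher (orange, right) and lower (blue, left) in small CFL spheroids, for lists of at least 10 tested genes, with the number tested in brackets and all 14024 tested genes at the bottom. Dotted lines continue the values of all genes, 31.2% higher and 33.2% lower; cholesterol synthesis (86.2% lower) and mitosis (71.4% higher) lie at the ends.

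Cholesterol synthesis genes were lower in CFL almost throughout. The pathway builds sterols from acetyl-CoA through mevalonate and squalene, and srebf2 switches its genes on together when sterol is short. Of 29 tested genes, 25 were lower and 1 higher, with a median log2 difference of -2.16 beside -0.03 over all tested genes. Among the 27 with at least 1 TPM in both lines, 23 were lower. At the rate-limiting step hmgcra had 24.1 and 28.2 TPM in CFL, against 211 and 209.8 TPM in SFL. The upstream synthase hmgcs1 had 9 and 7.97 TPM in CFL, against 78.9 and 80.1 TPM in SFL. Farnesyl pyrophosphate synthase gene fdps had 66.6 and 67.4 TPM in CFL, against 435 and 462 TPM in SFL. Squalene synthase fdft1 had 21.8 and 23.9 TPM in CFL, against 176 and 184 TPM in SFL, and squalene epoxidase sqlea had 10.5 and 13.3 TPM in CFL, against 96.1 and 88.5 TPM in SFL. Lanosterol synthase lss had 7.18 and 7.22 TPM in CFL, against 59.1 and 48.7 TPM in SFL.

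Late steps showed the same order. The isomerase gene ebp had 0.60 and 0.34 TPM in CFL, against 32.96 and 38.4 TPM in SFL, the widest gap of the list at -4.64 (SE 0.154, limma adjusted p = 1.38e-05). The last reductase, dhcr7, had 13.4 and 10.96 TPM in CFL, against 50.6 and 51.6 TPM in SFL. Regulators went with the enzymes: srebf2 was at 22.8 and 22.7 TPM in CFL, against 52.3 and 53.9 TPM in SFL. The gene of the sterol-dependent brake, insig1, was at 22.8 and 22.1 TPM in CFL, against 123 and 123 TPM in SFL. The second HMG-CoA reductase gene, hmgcrb, was not called (21.7 and 23.4 TPM in CFL, against 23.8 and 23.4 TPM in SFL), nor was the escort protein scap (2.88 and 2.23 TPM in CFL, against 2.24 and 2.2 TPM in SFL). A copy of the sterol carrier stard4 was the gene called higher in CFL, the other copy being lower, and their reads may be shared.

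Fatty acid synthesis, storage and uptake genes were also mostly lower. Of 24 tested genes for making fatty acids and triacylglycerol, 16 were lower and 5 higher, and of 18 for uptake, droplets and lipolysis, 13 were lower and 2 higher. The first list had 4 higher and 13 lower of the 20 at 1 TPM or more in both lines, and the second 2 higher and 8 lower of the 13 at 1 TPM or more in both lines. In the synthesis list, the higher count was 3 without CFL 10000, CFL 25000 or SFL 10000. In the uptake and storage list, the higher count was 1 without CFL 25000 or SFL 25000. Fatty acid synthase fasn had 25.2 and 27.6 TPM in CFL, against 153 and 176 TPM in SFL. Desaturase genes were far apart, with fads2 at 5.4 and 5.82 TPM in CFL, against 490.3 and 558 TPM in SFL. Stearoyl-CoA desaturase scd was at 7.01 and 15.4 TPM in CFL, against 402 and 579 TPM in SFL. The elongase elovl2 had 0.97 and 1.97 TPM in CFL, against 45.4 and 69.2 TPM in SFL. The gene dgat2, whose enzyme makes the last bond of triacylglycerol, had 0.14 and 0.68 TPM in CFL, against 7.04 and 10.7 TPM in SFL. The long-chain activator acsl3a was listed at 0 in both CFL libraries and at 19.02 and 14.1 TPM in SFL. A few genes ran the other way: the desaturase copy scdb had 299 and 314 TPM in CFL, against 120.3 and 134 TPM in SFL. The arachidonate-preferring activator acsl4a had 528 and 556 TPM in CFL, against 226 and 223 TPM in SFL.

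On the storage side, cidec, which fuses lipid droplets, had 81.5 and 78 TPM in CFL, against 832 and 794 TPM in SFL. The droplet coat gene plin2 had 38.9 and 44.1 TPM in CFL, against 148 and 92.6 TPM in SFL, and the lipase gene pnpla2 had 0.56 and 0.53 TPM in CFL, against 9.64 and 8.87 TPM in SFL. The call of plin2 was lost without CFL 10000 or CFL 25000 (limma adjusted p = 0.0659 and 0.0554). Muscle-type carrier fabp3 had 124 and 124 TPM in CFL, against 1396 and 1346 TPM in SFL. A droplet lipase, pnpla3, had 0.69 and 1 TPM in CFL, against 47.02 and 60.2 TPM in SFL. Monoglyceride lipase mgll was listed at 0 in both CFL libraries, against 18.2 and 23.9 TPM in SFL. The HDL receptor scarb1 was higher in CFL (9.75 and 10.6 TPM in CFL, against 5.46 and 5.07 TPM in SFL). Genes of fatty acid oxidation were nearer between the lines. Of 28 tested, 13 were not called, 11 were lower and 4 higher, against 8 lower and 5 higher after quantile normalization. In the oxidation list, the higher count was 2 without CFL 10000 or CFL 25000. The gatekeeper gene of oxidation, cpt1aa, had 12.8 and 12.6 TPM in CFL, against 48.8 and 65.8 TPM in SFL. The other copy, cpt1ab, was not called (14.1 and 15.5 TPM in CFL, against 15.8 and 14.6 TPM in SFL). The trifunctional subunit hadhb was higher (273 and 279 TPM in CFL, against 159 and 156 TPM in SFL).

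Glycolysis genes pointed both ways. Of 34 tested glycolysis genes, 16 were higher and 12 lower in CFL (47.1% and 35.3%, beside 31.2% and 33.2% of all tested genes). At 1 TPM or more in both lines were 29, of which 14 were higher and 9 lower. In the glycolysis list, the higher count was 10 without CFL 25000. Among the higher ones, the aldolase aldocb had 1787 and 1727 TPM in CFL, against 704 and 626 TPM in SFL. The pyruvate kinase pkma had 1746 and 1943 TPM in CFL, against 1022 and 919.9 TPM in SFL, and the isomerase tpi1b had 676 and 732 TPM in CFL, against 346 and 322 TPM in SFL. The enolase eno1a had 4533 and 4492 TPM in CFL, against 3539.6 and 3357 TPM in SFL. Lower ones included gck, the glucokinase of hepatocytes (0.14 and 0.14 TPM in CFL, against 2.87 and 9.03 TPM in SFL), pfklb, a liver phosphofructokinase (9.64 and 8.79 TPM in CFL, against 32.2 and 29.1 TPM in SFL), and hexokinase hk2 (41.5 and 39.1 TPM in CFL, against 94.99 and 91.3 TPM in SFL). The call of gck was lost without CFL 10000 or CFL 25000 (limma adjusted p = 0.0846 and 0.0864), with the difference at -2.45 in both cases. Glucose uptake genes parted too, with slc2a1a at 0.14 and 0.08 TPM in CFL, against 66.4 and 137 TPM in SFL. The other carrier, slc2a3a, was at 12.6 and 13.7 TPM in CFL, against 1.19 and 0.98 TPM in SFL. Lactate carrier slc16a1b was at 6.71 and 8.68 TPM in CFL, against 58.96 and 52.1 TPM in SFL.

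Hypoxia-response genes were more often higher in CFL, 11 of 21 tested, with 3 lower (52.4% and 14.3%, beside 31.2% and 33.2% of all tested genes). Among the 20 at 1 TPM or more in both lines, 10 were higher and 3 lower. Carbonic anhydrase ca9, a classic target of hypoxia-inducible factor, had 162 and 166 TPM in CFL, against 18.9 and 16.2 TPM in SFL. The growth factor binder igfbp1a had 208 and 283 TPM in CFL, against 24.5 and 23.1 TPM in SFL. The collagen hydroxylase p4ha1a had 68.2 and 64.1 TPM in CFL, against 16.7 and 14.2 TPM in SFL, and the mTOR inhibitor ddit4 had 58.3 and 67.5 TPM in CFL, against 18.7 and 17.6 TPM in SFL. A subunit of the factor itself, hif1ab, had 140.2 and 119 TPM in CFL, against 69.1 and 65.01 TPM in SFL. Of the other well-known targets, vegfaa (41.4 and 44.8 TPM in CFL, against 42.95 and 34.1 TPM in SFL) and ndrg1a (301 and 419 TPM in CFL, against 380.1 and 313 TPM in SFL) were not called, and ankrd37 (1.75 and 1.31 TPM in CFL, against 8.05 and 10.03 TPM in SFL) was lower. Oxidative phosphorylation genes were near the background in both directions, 28 higher and 27 lower of 88, but 39 higher and 19 lower after quantile normalization. Several of these were paired isoforms or subunit copies, such as NDUFS8 (232 and 205 TPM in CFL, against 24.2 and 28.96 TPM in SFL) and ndufs8a (29.6 and 31.4 TPM in CFL, against 76.3 and 83.2 TPM in SFL).

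Redox genes were split between the lines, 24 higher and 21 lower of 55 tested. Among the higher ones, gclm, the regulatory subunit of the first step, had 493 and 497 TPM in CFL, against 28.3 and 21.3 TPM in SFL. Its catalytic partner gclc had 445 and 445 TPM in CFL, against 188 and 197 TPM in SFL, and the cystine importer slc7a11 had 298 and 278 TPM in CFL, against 53.4 and 39.1 TPM in SFL. Peroxiredoxin prdx1 had 3306 and 3429.9 TPM in CFL, against 855 and 963 TPM in SFL. The transferase gstr had 1272 and 1552 TPM in CFL, against 159 and 149 TPM in SFL, and haem oxygenase hmox1a had 149 and 165 TPM in CFL, against 27.3 and 18.9 TPM in SFL. Lower in CFL were other genes of the same list, including gsta.1 (5.56 and 9.16 TPM in CFL, against 237 and 327 TPM in SFL), the microsomal transferase mgst1.1 (7.22 and 7.86 TPM in CFL, against 78.95 and 95.4 TPM in SFL) and the dismutase sod1 (320.1 and 307 TPM in CFL, against 716 and 711 TPM in SFL). Nrf2 gene nfe2l2a was not called (218 and 215 TPM in CFL, against 263 and 243 TPM in SFL). Both genes of its inhibitor, keap1a (43.7 and 45.1 TPM in CFL, against 11.3 and 13.3 TPM in SFL) and keap1b (73.8 and 76.2 TPM in CFL, against 25.03 and 26.9 TPM in SFL), were higher.

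Detoxification and retinoid genes leaned to SFL. In the cytochrome P450 and aldehyde dehydrogenase list, 22 of 35 tested genes were lower and 9 higher, with 5 higher and 15 lower of the 22 at 1 TPM or more in both lines. Folate enzyme aldh1l1 was at 0.24 and 0.24 TPM in CFL, against 64.6 and 98.98 TPM in SFL. The monoamine oxidase mao was at 3.34 and 0.46 TPM in CFL, against 142 and 145 TPM in SFL, and the retinoic acid synthase aldh1a2 was at 37.96 and 32.6 TPM in CFL, against 303 and 259 TPM in SFL. The dioxin-induced enzyme appears under the name cyp1a for 2 listed genes, both higher in CFL. Retinoid metabolism had 10 lower and 4 higher of 18, and 1 higher and 6 lower of the 11 at 1 TPM or more in both lines. Among them were rdh10a, which oxidises retinol, at 0.16 and 0.34 TPM in CFL, against 42.4 and 22.1 TPM in SFL, and crabp2b and rxraa (2.91 and 3.65 TPM in CFL, against 0.26 and 0.15 TPM in SFL) on the CFL side.

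Metal handling was balanced, 10 higher and 9 lower of 25. The hepatic iron-sensing genes tfr2 (4.76 and 4.05 TPM in CFL, against 69.9 and 78.9 TPM in SFL) and bmp6 (0 and 0.03 TPM in CFL, against 31.5 and 35 TPM in SFL) were SFL genes. The zinc importer slc39a10 (51.3 and 57.9 TPM in CFL, against 7.16 and 4.78 TPM in SFL) and ncoa4, the ferritin receptor of autophagy (132 and 134 TPM in CFL, against 49.1 and 50.4 TPM in SFL), were higher in CFL, as was a metallothionein listed as mt2 in both of its copies.

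Amino acid genes were more often higher in CFL, 34 of 66 tested against 18 lower. These are 51.5% and 27.3%, beside 31.2% and 33.2% of all tested genes. Of the 61 at 1 TPM or more in both lines, 31 were higher and 16 lower. Besides slc1a4, the argininosuccinate synthase ASS1 had 77.03 and 71.9 TPM in CFL, against 0.30 and 0.88 TPM in SFL. The gene mat2ab, whose enzyme makes the methyl donor S-adenosylmethionine, had 1515 and 1479 TPM in CFL, against 67.9 and 79.3 TPM in SFL. The glutamine importer slc1a5 had 181 and 151 TPM in CFL, against 62.2 and 55.8 TPM in SFL, and another, slc38a2, had 437 and 442 TPM in CFL, against 174 and 156 TPM in SFL. Branched-chain transaminase bcat1 had 87.8 and 83.96 TPM in CFL, against 15.3 and 20.02 TPM in SFL. Glutamate dehydrogenase glud1a was an SFL gene (1.92 and 1.58 TPM in CFL, against 278 and 265 TPM in SFL). Its copy glud1b was not called (48.4 and 56.9 TPM in CFL, against 65.8 and 60.7 TPM in SFL). The choline-derived methyl route through bhmt was also lower in CFL (0 and 0.07 TPM in CFL, against 6.19 and 9.1 TPM in SFL). Cystathionine synthase was divided between cbsa (57.5 and 61.6 TPM in CFL, against 11.2 and 13.3 TPM in SFL) and cbsb (180.3 and 161 TPM in CFL, against 783 and 655 TPM in SFL).

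Matrix genes were expressed by both lines, with some members higher in CFL and others higher in SFL. Of 30 tested collagen and elastic matrix genes, 16 were higher and 8 lower, and of 37 basement membrane and adhesion genes 20 were higher and 14 lower. The first list had 13 higher and 5 lower of the 24 at 1 TPM or more in both lines, and the second 12 higher and 11 lower of the 26 at 1 TPM or more in both lines. In the collagen list, the lower count was 4 without CFL 10000 or SFL 25000 and 5 without CFL 25000 or SFL 10000. In the basement membrane list, the higher count was 13 without CFL 10000. Collagen XVIII gene col18a1a, whose end fragment is endostatin, had 397 and 412 TPM in CFL, against 9.92 and 4.71 TPM in SFL. The fibril-associated col12a1a had 282 and 201 TPM in CFL, against 33.9 and 29.6 TPM in SFL, and the latent TGF-beta binder LTBP3 had 35.4 and 34.1 TPM in CFL, against 2.35 and 2.13 TPM in SFL. The type I chain col1a1a was lower (3.28 and 6.48 TPM in CFL, against 58.4 and 25.4 TPM in SFL), with its lower SFL value at 25000 cells, and its call was lost without CFL 10000 (limma adjusted p = 0.0663). Matricellular sparc had 715 and 906 TPM in CFL, against 109.8 and 98.1 TPM in SFL. The laminin chain lama1 had 7.76 and 9.08 TPM in CFL, against 0.95 and 0.96 TPM in SFL, and the perlecan gene hspg2 had 9.57 and 8.2 TPM in CFL, against 1.87 and 1.81 TPM in SFL.

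Adhesion receptors differed by member. Integrin itga6a, a laminin receptor, was higher in CFL (110.2 and 118 TPM in CFL, against 40.1 and 28.8 TPM in SFL), and so was itgav (54.2 and 44.8 TPM in CFL, against 18.1 and 22.6 TPM in SFL). The alpha subunit genes itga4 (1.92 and 1.67 TPM in CFL, against 36.1 and 33.5 TPM in SFL), itga9 (0.34 and 0.13 TPM in CFL, against 16.03 and 16.99 TPM in SFL) and itga5 (1 and 0.82 TPM in CFL, against 6.98 and 4.25 TPM in SFL), were lower. The YAP target ccn1 (24.4 and 26.9 TPM in CFL, against 145 and 141 TPM in SFL) was also lower. Proteases and inhibitors were near even, 10 higher and 11 lower of 23. In the protease list, the higher count was 4 without CFL 10000 and 6 without SFL 10000 or SFL 25000, and the lower count was 7 without CFL 25000. Membrane protease inhibitor reck had 28.4 and 29.5 TPM in CFL, against 2.99 and 1.6 TPM in SFL. Another inhibitor, timp2b, had 1477 and 1335 TPM in CFL, against 687 and 589.9 TPM in SFL, while the lysosomal protease ctsd had 1084 and 1044 TPM in CFL, against 2039 and 2409 TPM in SFL.

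Transcription factor genes included several that were at or near 0 in 1 line. Among liver and endoderm factors, 7 were higher and 5 lower of 17 tested, with 4 higher and 3 lower of the 12 at 1 TPM or more in both lines. In the liver factor list, the higher count was 4 without CFL 25000. The duct and kidney factor hnf1bb had 309 and 336 TPM in CFL, against 4.57 and 6.12 TPM in SFL, a difference of 5.68 in log2 units (SE 0.141, limma adjusted p = 7.90e-06). The bile acid regulator nr5a2 had 22.2 and 28.3 TPM in CFL, against 0.22 and 0.17 TPM in SFL. Endoderm factor gata6 was listed at 0 in both CFL libraries and at 46.7 and 43.2 TPM in SFL. The adipocyte and hepatocyte factor cebpa had 5.54 and 7.28 TPM in CFL, against 133 and 141 TPM in SFL. The master hepatocyte genes hnf4a (0.31 and 0.12 TPM in CFL, against 0 TPM in both SFL libraries) and foxa3 (0.01 and 0.07 TPM in CFL, against 0 and 0.03 TPM in SFL) did not reach the filter, and foxa2 was listed at 0 in all 4 libraries. Neither PPARG (75.2 and 88.3 TPM in CFL, against 92.8 and 80.4 TPM in SFL) nor cebpb (145 and 204 TPM in CFL, against 146 and 92.9 TPM in SFL) was called, although cebpb passed after quantile normalization (limma adjusted p = 0.0395) and with density as a replicate block (0.0495).

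Mesoderm and body plan factors numbered 27 tested of 91 listed, 14 higher and 7 lower, with 4 higher and 3 lower of the 13 at 1 TPM or more in both lines. Homeobox genes pitx3, a lens and midbrain factor (65.6 and 57.96 TPM in CFL, against 0 and 0.15 TPM in SFL), and pax6a, the eye field factor (102 and 104 TPM in CFL, against 0.08 and 0 TPM in SFL), were abundant in CFL and at or close to 0 in SFL. The skeletal factor runx2b had 19.5 and 18.9 TPM in CFL, against 2.25 and 2.18 TPM in SFL. The eye and craniofacial gene mab21l1 was at 27.8 and 6.67 TPM in CFL, higher at 10000 cells, and listed at 0 in SFL, and its call was lost without SFL 10000 or SFL 25000 (limma adjusted p = 0.0565 and 0.0533). The repressor zeb2b had 0.25 and 0.24 TPM in CFL, against 42.4 and 40.2 TPM in SFL, and the kidney stroma factor foxd1 had 0.24 and 0.26 TPM in CFL, against 12.7 and 13.7 TPM in SFL, both on the SFL side. The zeb2a copy was not called (20.9 and 20.3 TPM in CFL, against 18.2 and 15.6 TPM in SFL) other than after quantile normalization (limma adjusted p = 0.0259), nor were meis1b (19.5 and 15.3 TPM in CFL, against 15.4 and 15.2 TPM in SFL) and osr2 (6.09 and 9.43 TPM in CFL, against 8.51 and 6.72 TPM in SFL). Of 37 listed Hox genes none was tested, the highest value of any in the 4 libraries being 1.06 TPM, and 27 were at 0 in all 4.

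**Figure D4:**
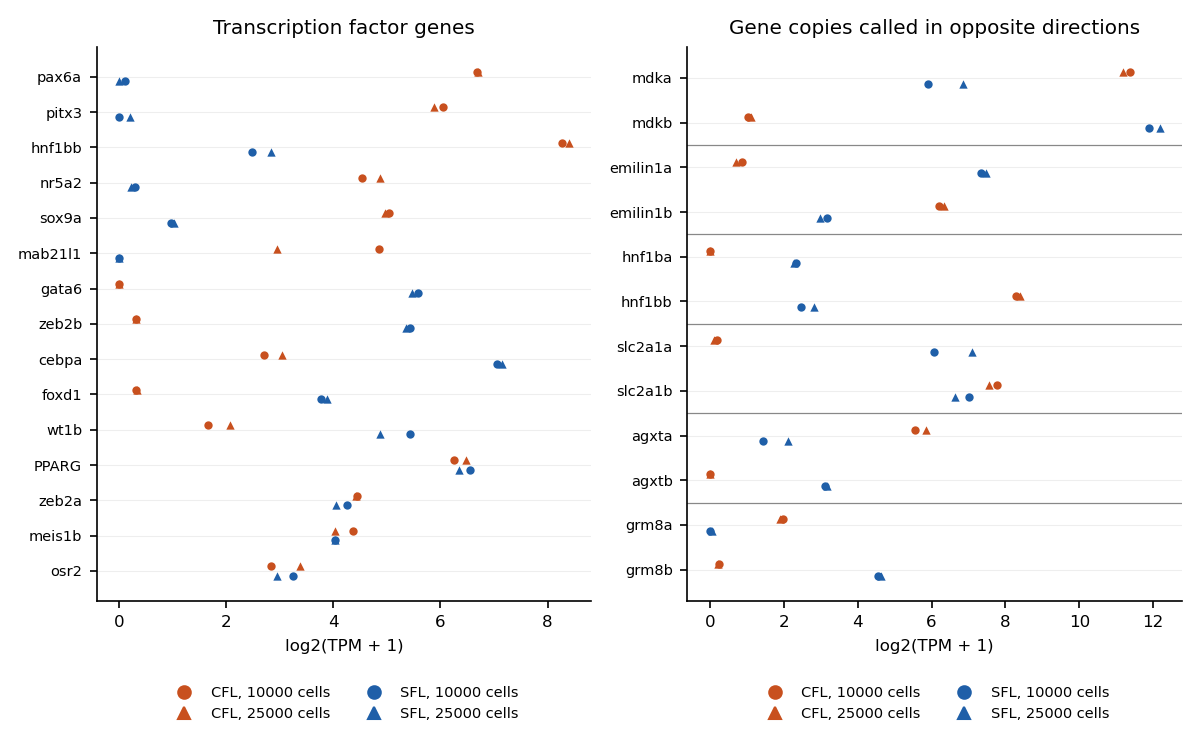
Level of 15 transcription factor genes (left) and of the 6 pairs of gene copies with the widest gap among those called in opposite directions (right) in each small spheroid library, as log2(TPM + 1). Orange marks CFL and blue SFL, circles 10000 and triangles 25000 cells; the last 4 factors on the left were not called, and within each pair on the right the colours change sides.

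Growth factor genes were more often higher in CFL, 23 of 39 tested against 9 lower, and 12 higher and 7 lower of the 26 at 1 TPM or more in both lines. In the growth factor list, the lower count was 5 without CFL 10000 or SFL 10000. The midkines exchanged places, mdka at 2673 and 2327 TPM in CFL, against 59.3 and 113 TPM in SFL and mdkb as given above. Neurotrophin genes bdnf (37.1 and 47.3 TPM in CFL, against 0 and 0.04 TPM in SFL) and ntf3 (37.7 and 33.2 TPM in CFL, against 0.97 and 2.35 TPM in SFL), the platelet-derived ligands pdgfaa (21.9 and 20.8 TPM in CFL, against 0.21 and 0.02 TPM in SFL) and pdgfc (10.7 and 8.79 TPM in CFL, against 0.38 and 0.56 TPM in SFL), and fgf18b (37.7 and 27.01 TPM in CFL, against 1.78 and 3.53 TPM in SFL) were higher. The receptors pdgfra and pdgfrb were higher in the same libraries, as was met, the hepatocyte growth factor receptor (158 and 194 TPM in CFL, against 76.2 and 68.6 TPM in SFL). Lymphatic factor vegfc (1.45 and 2.63 TPM in CFL, against 26.2 and 17.6 TPM in SFL) and the receptor fgfr2 (12.2 and 15 TPM in CFL, against 54.9 and 61.7 TPM in SFL) were lower. The fasting hormone gene fgf21 was at 0.16 and 0.10 TPM in CFL, against 12.3 and 1.97 TPM in SFL, so that its SFL values differed widely between densities, and its call was lost without CFL 10000 or CFL 25000 (limma adjusted p = 0.17 and 0.183) or with no filter (0.0654).

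In the TGF-beta and BMP list, 12 were higher and 17 lower of 42, with 6 higher and 13 lower of the 31 at 1 TPM or more in both lines. In the TGF-beta list, the lower count was 9 without CFL 25000. Ligands divided, with bmp6 and tgfb1b (0.44 and 0.14 TPM in CFL, against 15.5 and 11.6 TPM in SFL) in SFL and the activin chain inhbaa (14.4 and 15.5 TPM in CFL, against 0.41 and 0.26 TPM in SFL) and tgfb3 (3.84 and 3.76 TPM in CFL, against 0.12 and 0.32 TPM in SFL) in CFL. Follistatin-like genes fstl1a (117 and 142 TPM in CFL, against 0.57 and 0.93 TPM in SFL) and fstl1b (352 and 328 TPM in CFL, against 62.8 and 53.7 TPM in SFL) were both higher, and so was the target gene id1 (242 and 244 TPM in CFL, against 95.7 and 67.4 TPM in SFL). The ligand gene bmp16 was listed at 0 in both CFL libraries, against 15 and 14.4 TPM in SFL. Among Wnt genes, 12 were higher and 7 lower of 23, with 11 higher and 3 lower of the 18 at 1 TPM or more in both lines. The secreted inhibitor wif1 had 31.6 and 30.8 TPM in CFL, against 3.58 and 2.48 TPM in SFL, and the co-receptor lrp5 had 13.8 and 12.99 TPM in CFL, against 4.5 and 3.82 TPM in SFL. The feedback target AXIN2 was at 1.2 and 1.44 TPM in CFL, against 18.5 and 26.8 TPM in SFL. A second gene named axin2 was at 0.36 and 0.22 TPM in CFL, against 2.36 and 2.12 TPM in SFL, and both were lower. In the Wnt list, the lower count was 3 without SFL 25000.

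Notch genes notch3 (13.8 and 12.8 TPM in CFL, against 3.13 and 1.2 TPM in SFL), its ligand jag1b (3.64 and 3.19 TPM in CFL, against 0.20 and 0.17 TPM in SFL) and the target her6 (82.3 and 94.8 TPM in CFL, against 20.7 and 17.4 TPM in SFL) were higher in CFL, within a list of 7 higher and 3 lower of 15. Of the 14 at 1 TPM or more in both lines, 6 were higher and 3 lower. In the Notch list, the lower count was 1 without CFL 10000 and 0 without CFL 25000. The call of notch3 was lost without CFL 10000 or CFL 25000 (limma adjusted p = 0.0523 and 0.0503). Insulin and IGF genes had 14 higher and 7 lower of 34 (41.2% and 20.6%, beside 31.2% and 33.2% of all tested genes). Of the 29 at 1 TPM or more in both lines, 10 were higher and 6 lower. In the insulin list, the higher count was 9 without CFL 10000, and the lower count was 4 without CFL 10000. The IGF carrier IGFBP3 had 23.1 and 24.3 TPM in CFL, against 0.20 and 0.36 TPM in SFL. The adaptor irs2b had 15.8 and 15.8 TPM in CFL, against 1.13 and 0.98 TPM in SFL, and the receptor igf1rb had 10.6 and 10.1 TPM in CFL, against 3.17 and 2.31 TPM in SFL. The insulin receptor genes themselves were close, with insra not called (4.9 and 5.12 TPM in CFL, against 4.9 and 4.93 TPM in SFL) and insrb lower (9.5 and 7.76 TPM in CFL, against 13.9 and 12.4 TPM in SFL). The regulatory subunit pik3r1 was lower (16.5 and 15.6 TPM in CFL, against 41.96 and 45.8 TPM in SFL). The call of insrb was lost without any 1 of the 4 libraries (limma adjusted p = 0.0532 to 0.119) and in the fit of all 8 libraries (0.183).

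Immune genes differed by branch. Antigen presentation was higher in CFL for 12 of 17 tested genes and lower for 2 (70.6% and 11.8%, beside 31.2% and 33.2% of all tested genes). Among the 15 at 1 TPM or more in both lines, 10 were higher and 2 lower. In the antigen presentation list, the lower count was 1 without CFL 25000. The peptide transporter tap1 had 21.9 and 18.8 TPM in CFL, against 9.08 and 10.6 TPM in SFL. Of the immunoproteasome subunits, psmb8a had 164 and 171 TPM in CFL, against 51.97 and 68.8 TPM in SFL and psmb9a had 81.99 and 78.3 TPM in CFL, against 23.4 and 37.2 TPM in SFL. The inducible subunit psmb13a had 20.4 and 20.5 TPM in CFL, against 2.61 and 4.33 TPM in SFL, and the class I light chain b2ml had 585 and 625 TPM in CFL, against 342 and 379 TPM in SFL. The call of psmb9a was lost without CFL 10000 or CFL 25000 (limma adjusted p = 0.0646 and 0.0613). Interferon response genes lay near even, 12 higher and 10 lower of 28, with a median difference of 0.00. Of the higher ones, 3 carry the name isg15, for several listed copies that may share reads. In the interferon list, the higher count was 6 without CFL 25000, and the lower count was 4 without CFL 10000 or CFL 25000 and 5 without SFL 10000. The regulator irf7 was higher (4.02 and 4.16 TPM in CFL, against 0.70 and 1.36 TPM in SFL). Both stat2 (34.1 and 34.8 TPM in CFL, against 83.2 and 81.7 TPM in SFL) and the antiviral kinase eif2ak2 (6.78 and 6.84 TPM in CFL, against 13.3 and 12.5 TPM in SFL) were lower.

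Cytokine, chemokine and TNF genes were higher in CFL in 18 of 33 tested cases and lower in 7, with 16 higher and 5 lower of the 27 at 1 TPM or more in both lines. In the cytokine list, the lower count was 3 without CFL 10000 or CFL 25000. The receptor gene il10ra had 40.6 and 34.6 TPM in CFL, against 3.09 and 2.75 TPM in SFL. Of the macrophage growth factors, csf1a had 4.88 and 6.76 TPM in CFL, against 0.04 and 0.02 TPM in SFL and il34 had 9.07 and 11.4 TPM in CFL, against 1.31 and 1.44 TPM in SFL. The osteoclast factor tnfsf11 had 10.6 and 10.7 TPM in CFL, against 1.78 and 1.53 TPM in SFL. Of the NF-kappaB subunit genes, nfkb2 (77.5 and 74.01 TPM in CFL, against 20.3 and 22.6 TPM in SFL), rela (21.02 and 18.9 TPM in CFL, against 10.9 and 11.3 TPM in SFL) and relb (18.3 and 19.5 TPM in CFL, against 13.7 and 13.6 TPM in SFL) were higher, and nfkb1 was not called (6.71 and 5.24 TPM in CFL, against 6.85 and 7.33 TPM in SFL). The call of relb was lost without SFL 25000, CFL 10000 or CFL 25000 (limma adjusted p = 0.0522, 0.0671 and 0.096) and in the fit of all 8 libraries (0.126). Also higher were the feedback inhibitors nfkbiaa (60.04 and 57.04 TPM in CFL, against 30.04 and 32.7 TPM in SFL) and tnfaip3 (25.2 and 25.8 TPM in CFL, against 11.7 and 11.1 TPM in SFL). IL-6 receptor genes il6r (7.15 and 7.05 TPM in CFL, against 22.5 and 26.1 TPM in SFL) and il6st (25.8 and 23.01 TPM in CFL, against 71.9 and 59.7 TPM in SFL) were lower. Complement and coagulation had 5 genes each way of 12, and 10 higher and 8 lower with no filter, headed by the alternative pathway protease cfd (2.2 and 1.68 TPM in CFL, against 435 and 217 TPM in SFL) on the SFL side. Of the 9 at 1 TPM or more in both lines, 3 were higher and 4 lower. In the complement list, the higher count was 3 without CFL 25000.

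Cell cycle genes were higher in CFL by modest amounts. Of 56 tested mitosis genes, 40 were higher and 3 lower, with a median log2 difference of 0.71, and all 56 were above 1 TPM in both lines. In the mitosis list, the higher count was 21 without CFL 10000, 16 without CFL 25000 and 25 without SFL 10000, and the lower count was 1 without CFL 10000, CFL 25000 or SFL 25000. Topoisomerase top2a had 74.8 and 72.8 TPM in CFL, against 8.1 and 11.2 TPM in SFL, and the condensin smc4 had 99.2 and 92.8 TPM in CFL, against 18.6 and 29.3 TPM in SFL. The kinetochore gene nuf2 had 45.2 and 45.4 TPM in CFL, against 12.01 and 14.04 TPM in SFL, and cdk1, the mitotic kinase, had 42.9 and 43.5 TPM in CFL, against 14.2 and 19.8 TPM in SFL. Genes named ube2c, 2 of them, and prc1a (11.6 and 11.4 TPM in CFL, against 15.5 and 19.6 TPM in SFL) were the 3 lower ones, the call of prc1a being lost without CFL 10000, CFL 25000 or SFL 25000 (limma adjusted p = 0.124, 0.131 and 0.0585). DNA replication had 25 higher and 4 lower of 54, with a median of 0.38. In the replication list, the higher count was 13 without CFL 10000 and 7 without CFL 25000, and the lower count was 1 without CFL 10000 or CFL 25000 and 2 without SFL 10000 or SFL 25000. Helicase subunits mcm2 (27.6 and 30.7 TPM in CFL, against 14.97 and 15.3 TPM in SFL) and mcm6 (23.7 and 26.4 TPM in CFL, against 11.7 and 14.1 TPM in SFL) were higher, and mcm5 was not called (19.3 and 21.8 TPM in CFL, against 20.8 and 20.5 TPM in SFL). The clamp pcna was lower (53.1 and 56.7 TPM in CFL, against 101 and 114 TPM in SFL).

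Growth arrest genes did not move as a block. Of 26 tested, 10 were higher and 6 lower. In the growth arrest list, the higher count was 6 without CFL 10000, CFL 25000, SFL 10000 or SFL 25000. The kinase inhibitor cdkn1a was not called (28.8 and 30.6 TPM in CFL, against 40.99 and 34.4 TPM in SFL), except without SFL 25000 (limma adjusted p = 0.0374). Stress sensors sesn1 (38.8 and 32.7 TPM in CFL, against 137 and 211 TPM in SFL) and sesn2 (21.01 and 23.4 TPM in CFL, against 115 and 90.2 TPM in SFL) were lower, and gadd45ga was higher (77.6 and 84.5 TPM in CFL, against 12.5 and 11.6 TPM in SFL).

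Proteasome genes were mostly lower in CFL, 34 of 52 tested, with 9 higher and a median of -0.50. These are 65.4% lower and 17.3% higher, beside 33.2% and 31.2% of all tested genes. In the proteasome list, the higher count was 5 without CFL 10000. Catalytic psmb6 had 218 and 234 TPM in CFL, against 824 and 777 TPM in SFL, and the lid subunit psmd7 had 235 and 241 TPM in CFL, against 523 and 558 TPM in SFL. Of the higher ones, psmb13a, psmb12 (63.7 and 59.5 TPM in CFL, against 23.7 and 26.99 TPM in SFL), psmb8a and psmb9a belong to the inducible immunoproteasome set, and psmd10, an assembly chaperone, had 204 and 219 TPM in CFL, against 64.7 and 64.5 TPM in SFL. Ribosomal protein genes gave 31 higher, 10 lower and 37 not called of 78, with rps27l the furthest apart (581 and 468 TPM in CFL, against 4171 and 3879 TPM in SFL). In the ribosomal list, the higher count was 17 without CFL 10000, CFL 25000 or SFL 10000 and 18 without SFL 25000, and the lower count was 5 without CFL 25000 or SFL 10000. Unfolded protein and heat shock genes were near even, 21 higher and 18 lower of 50, but 26 higher and 13 lower after quantile normalization. In the heat shock list, the lower count was 10 without CFL 10000, CFL 25000 or SFL 10000. Heat shock gene hspb1 was at 0.07 and 0 TPM in CFL, against 32.96 and 47.4 TPM in SFL. The constitutive hspa8 was at 1442 and 1425 TPM in CFL, against 3763 and 3748 TPM in SFL, while mitochondrial hspd1 (894 and 748 TPM in CFL, against 334 and 313 TPM in SFL) and the lectin chaperone canx (551 and 478 TPM in CFL, against 176 and 145 TPM in SFL) were higher. The stress factor ddit3 was lower (51.8 and 42.9 TPM in CFL, against 232 and 225 TPM in SFL).

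Clock genes were higher in CFL in 19 of 38 tested cases and lower in 7, with 1 collection per library and no hour of day in the labels. These are 50% and 18.4%, beside 31.2% and 33.2% of all tested genes. At 1 TPM or more in both lines were 36, of which 19 were higher and 7 lower. In the clock list, the higher count was 12 without CFL 10000 and 11 without CFL 25000, and the lower count was 4 without CFL 10000 and 3 without CFL 25000. The repressors per3 (7.86 and 7.16 TPM in CFL, against 2.45 and 1.91 TPM in SFL), cry1a (42.5 and 41.8 TPM in CFL, against 18.8 and 17.4 TPM in SFL) and cry2 (17.6 and 20.3 TPM in CFL, against 7.78 and 7.77 TPM in SFL) were higher, as was the activator arntl2 (9.02 and 8.95 TPM in CFL, against 2.28 and 2.47 TPM in SFL). Core activators clocka (7.8 and 6.39 TPM in CFL, against 7.94 and 8.7 TPM in SFL) and arntl1b (27.3 and 28.2 TPM in CFL, against 23.7 and 21.8 TPM in SFL) were not called, although arntl1b passed after quantile normalization (limma adjusted p = 0.015) and with median-of-ratios scaling (0.035). The nuclear receptor nr1d1, which represses the activators, was lower (1.74 and 1.11 TPM in CFL, against 13.9 and 24.1 TPM in SFL), while nr1d2a (14.3 and 13.9 TPM in CFL, against 8.49 and 8.12 TPM in SFL) was higher.

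Fish of this group carry an extra round of duplicated genes, written with a final a and b. Among 953 pairs with both copies tested, 246 (25.8%) had copies called in the same direction, 105 of them higher and 141 lower. In opposite directions were 169 (17.7%), while 417 had only 1 copy called and 121 none. Beside these stand the 31.2% higher and 33.2% lower of all tested genes, and nothing particular to copies is read from the count. The pairing goes by name, so some pairs are distinct genes rather than duplicates, hexa and hexb being an example, and reads of close copies may have been shared between them. In 49 of the 169 pairs both copies differed at least 2-fold. The count of 169 fell to 70 without CFL 10000 and to 77 without CFL 25000.

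The widest gap was that of the midkines, with mdka higher in CFL by 4.91 and mdkb lower at -10.95. Elastic fibre genes emilin1a (0.82 and 0.62 TPM in CFL, against 161 and 177 TPM in SFL) and emilin1b (72.2 and 79.9 TPM in CFL, against 7.95 and 6.91 TPM in SFL) came next. Of the factor pair, hnf1ba was listed at 0 in both CFL libraries and at 4.03 and 3.84 TPM in SFL, while hnf1bb was the CFL gene. Glucose transporter slc2a1a was lower in CFL by the values above, and slc2a1b was higher in CFL (218 and 188 TPM in CFL, against 129 and 99.02 TPM in SFL), a call lost without CFL 10000 or CFL 25000 (limma adjusted p = 0.0817 and 0.054). For glyoxylate transaminase, agxta was at 45.6 and 56.6 TPM in CFL, against 1.71 and 3.35 TPM in SFL, and agxtb was listed at 0 in CFL with 7.72 and 8.08 TPM in SFL. Glutamate receptor genes grm8a (2.96 and 2.76 TPM in CFL, against 0 and 0.04 TPM in SFL) and grm8b (0.18 and 0.16 TPM in CFL, against 22.3 and 23.8 TPM in SFL) complete the 6.

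Whether the line difference depended on spheroid size was asked by testing the difference in small minus the difference in large spheroids over all 8 libraries. In the fit of all 8, no gene passed in limma (0 of 13783, 0%), the smallest adjusted p being 0.105, and 1132 had an unadjusted p under 0.05, 690 above 0 and 442 below. With 1 library left out, 5 passed without CFL 25000, 4 without the CFL library of 50000 cells, 2 without that of 100000 cells, and at most 1 without any of the other 5. Of the 9023 genes called in small spheroids, 97.9% had the same sign in large ones. Described next are the 6 genes with the smallest p in each direction among those whose name stands once in the table, so that genes without a name or with several entries are passed over. The NDRG family gene ndrg3a was at 52.5 and 60.1 TPM in CFL, against 1.01 and 0.90 TPM in SFL in small, and at 18.1 and 11.5 TPM in CFL, against 2.42 and 1.85 TPM in SFL in large spheroids, a difference of differences of 2.56 (SE 0.306, limma unadjusted p = 3.43e-05, and adjusted p = 0.037 without the CFL library of 50000 cells). The kinesin motor kif1aa was at 17.4 and 14.9 TPM in CFL, against 0.06 and 0 TPM in SFL in small, and 1.75 and 2.91 TPM in CFL, against 0 TPM in both SFL libraries in large spheroids. Neuron-type enolase eno2 was at 7.9 and 7.33 TPM in CFL, against 0.05 and 0.14 TPM in SFL in small, and 2.18 and 1.74 TPM in CFL, against 0.38 and 0.19 TPM in SFL in large spheroids. Each of these 3 was highest in small CFL spheroids, without overlap with the other groups.

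Potassium channel kcnd3 (difference of differences 1.69) and sgsm1a (1.84), a regulator of small GTPases, followed the same order. In CFL, kcnd3 was at 5.35 and 5.98 TPM in small and 0.99 and 1.31 TPM in large spheroids. For sgsm1a the CFL values were 9.49 and 7.98 TPM, then 1.32 and 1.97 TPM. Every SFL value of kcnd3, sgsm1a, kif1aa and eno2 was near the floor, at most 0.38 TPM. Their differences of differences are therefore mostly the gap between small and large CFL spheroids. The integrin ligand npnta, nephronectin, was at 39.1 and 44.99 TPM in CFL, against 27.2 and 33.4 TPM in SFL in small, but at 15.3 and 13.7 TPM in CFL, against 29.9 and 34.7 TPM in SFL in large spheroids. So npnta was higher in CFL in small and lower in large spheroids, with no overlap in either. Its call in small spheroids was lost without SFL 10000, CFL 10000 or CFL 25000 (limma adjusted p = 0.132, 0.0993 and 0.203) or with no filter (0.0584).

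Below 0 stood genes whose CFL minus SFL difference was lower in small than in large spheroids, whether CFL or SFL changed. The helicase gene helz2, an interferon-induced coactivator, was at 0.35 and 1 TPM in CFL, against 7.28 and 12.6 TPM in SFL in small, and 6.18 and 11.4 TPM in CFL, against 7.43 and 5.73 TPM in SFL in large spheroids, a difference of differences of -3.01 (SE 0.485, limma unadjusted p = 2.70e-04). The glutathione cycle enzyme ggcta was higher in CFL at both sizes, with 307 and 303 TPM in CFL, against 178 and 170.5 TPM in SFL in small and 507 and 501 TPM in CFL, against 174 and 181 TPM in SFL in large spheroids. The angiotensin-converting enzyme gene ace was at 3.34 and 4.13 TPM in CFL, against 11.9 and 12.2 TPM in SFL in small, and 4.56 and 4.8 TPM in CFL, against 4.24 and 6.34 TPM in SFL in large spheroids, where the lines overlapped. Also in this direction were the sulfotransferase CHST15 (-1.17), the oligosaccharyltransferase subunit ost4 (-0.89) and nme6, a nucleoside diphosphate kinase (-1.21). In CFL, CHST15 stayed at the floor, at 0 TPM in both libraries in small and 0 and 0.03 TPM in large spheroids. Its SFL values were 7.17 and 7.71 TPM in small and 3.09 and 2.53 TPM in large spheroids.

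The interferon list was set out by size as a description. Of 28 tested members, 7 had an unadjusted p under 0.05 below 0 and none above 0, beside 442 and 690 of all 13783 genes. The median line difference was 0.00 in small against 0.48 in large spheroids. A lean to 1 side was not particular to this list. Of 34 glycolysis genes 9 lay above 0 and 0 below by the same measure, and of 38 growth factor genes 7 and 0. The interferon list also holds copies named isg15 that may share reads. The RNA sensor dhx58 was at 4.53 and 5.41 TPM in CFL, against 6.96 and 7.14 TPM in SFL in small, and 5.51 and 11.3 TPM in CFL, against 3.78 and 3.68 TPM in SFL in large spheroids. For ifit8 the values were 0.31 and 0.75 TPM in CFL, against 1.15 and 1.84 TPM in SFL in small, and 0.95 and 5.81 TPM in CFL, against 0.60 and 0 TPM in SFL in large spheroids. Both were lower in CFL in small spheroids and higher in large ones without overlap, the highest value of each being that of CFL at 100000 cells. Their calls in small spheroids were lost without CFL 10000 or CFL 25000 (limma adjusted p = 0.171 and 0.0733 for dhx58, and 0.19 and 0.0692 for ifit8), and that of dhx58 also without SFL 10000 or SFL 25000 (0.108 and 0.121). In the fit of all 8 libraries the calls were lost too (0.205 for dhx58 and 0.282 for ifit8), and with no filter (0.0645 and 0.069, limma adjusted p). No member passed the adjusted test of the difference between sizes.

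**Figure D5:**
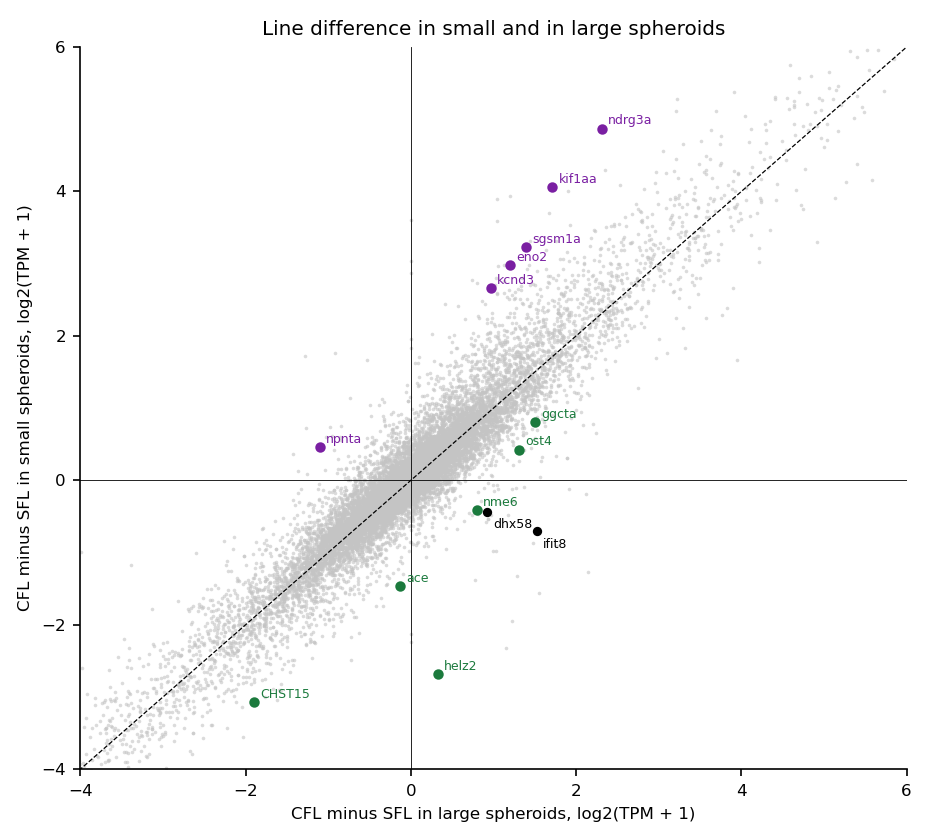
Difference between CFL and SFL in small spheroids (vertical axis) against the same in large spheroids (horizontal axis), log2(TPM + 1), for genes tested in small spheroids, with axes held to -4 to 6 so that 262 genes fall outside. Purple and green mark the 12 genes, of those whose name stands once in the table, with the smallest p above and below 0 for the difference between sizes, black 2 further interferon genes, and the dashed line equal differences; npnta lies above 0 in small and below 0 in large spheroids, and ifit8 and dhx58 the other way.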

How the data were processed

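RNA of 8 spheroid libraries was sequenced on day 28 as single 75-base reads from a stranded poly(A) kit, per the labels' protocols, and 4 of them are compared here. The authors deposited 1 table of TPM values per gene and library. STAR 2.7.3a and RSEM 1.3.0 are named in the submitters' processing notes; the genome build, annotation and strand setting are not given in the sources used here. TPM keeps no depth, so no counting error can be given, and reads of genes that overlap or resemble each other may have been divided between them.

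Values were taken as log2(TPM + 1) for genes with a mean of at least 1 TPM over the 4 libraries, and CFL minus SFL was tested with limma 3.58.1 in R 4.3.3 (empirical Bayes with trend, residual df 2, Benjamini-Hochberg adjusted p under 0.05). Libraries of 10000 and 25000 cells served as the 2 replicates of a line. As the labels name no separate cultures, p-values measure only the spread between these samples. The difference between small and large spheroids was a contrast over all 8 libraries. Both models were run on simulated data first. There only a small set of genes was changed and the noise of each library was independent. The outcome therefore does not bear on the share of genes called here.

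Members and lists were chosen with earlier results of these data known. Names follow a written rule, applied to genes whose name stands once in the table. Per direction it takes the 12 largest called differences without overlap whose higher line averaged at least 5 TPM. It also takes the 10 most abundant named genes of each line, the 6 smallest p per direction between sizes and the 6 widest copy pairs. From each list come up to 4 leading members and other members with a described role. Exceptions with several entries of a name are given too, such as krt8, isg15, cyp1a, mt2, ube2c, asns and nanos1. A few genes this rule names are not reported here. Alternatives were a pseudocount of 0.1, no filter or a minimum of 5 TPM, 2 rescalings, no trend, density as a block, all 8 libraries in the fit, and each library left out. For the lists and the copies, some of these were added after seeing the data.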

Additional observations from a re-analysis of the deposited data

Results flagged for a closer look

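Among genes whose name stands once in the table, a pair of the 12 with the smallest p for the difference between sizes had line differences of opposite sign in small and large spheroids, with no overlap of CFL and SFL at either size. For npnta the line difference in small minus that in large spheroids was 1.57 on the log2(TPM + 1) scale, from the values given above. For nme6 it was -1.21, with 6.06 and 6.43 TPM in CFL, against 9.36 and 7.91 TPM in SFL in small and 6.31 and 8.42 TPM in CFL, against 3.61 and 3.93 TPM in SFL in large spheroids. The difference between sizes passed the limma adjusted test for neither. The call of nme6 in small spheroids was lost without SFL 10000 (limma adjusted p = 0.138), CFL 10000 (0.198) or CFL 25000 (0.149), in the fit of all 8 libraries (0.0756) and with no filter (0.0705).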

How the results depend on the processing

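The 9023 calls numbered 8835 to 10102 with a pseudocount of 0.1 (8862), no filter (10102), median-of-ratios scaling (9046), quantile normalization (8952), no trend (8835) or seeding density as a replicate block (9097), 8141 in the fit of all 8 libraries and 6784 with a minimum of 5 TPM. Leaving out 1 library gave 5849 to 7507 calls, of which 2666 to 3867 were higher in CFL. No gene called both as reported and in an alternative changed sign. Calls of at least 2-fold numbered 2871 with a minimum of 5 TPM, where fewer genes were tested, and 3978 to 4269 with 1 library left out. Opposite copies numbered 89 with that minimum and 70 to 123 with 1 library left out. The share of calls higher in CFL was 48.4%, 51.2% after quantile normalization and 49.6% with median-of-ratios scaling.

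Between sizes, 0 to 5 genes passed with 1 library left out and 0 under all other alternatives run, the replicate block included. Those with a name were nanos1 without CFL 10000, mab21l1 without CFL 25000, ndrg3a and SNORD33 without the CFL library of 50000 cells, and gng12a and SNORD24 without that of 100000 cells. Under those other alternatives the smallest adjusted p ran from 0.0636 with no filter to 0.167 with a pseudocount of 0.1. Deviations of the 10000 and 25000 cell libraries correlated at r = 0.0186 between lines across genes, so the shared seeding density was used as a block only as an alternative.

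Of 4002 alternative values of 338 named genes, 3893 kept direction and side of the threshold, 81 lost the call and 8 gained it. Of the losses, 17 came without leaving out a library: with no filter ttpa, ybx1, npnta, nme6, dhx58, ifit8, fgf21 and rps15a (limma adjusted p = 0.0507 to 0.0737), without trend ttpa (0.0519), in the fit of all 8 libraries ttpa, insrb, nme6, dhx58, ifit8 and relb (0.0756 to 0.282), and after quantile normalization cfl1 and tmsb4x (0.0617 and 0.137). The replicate block gave cebpb a call (limma adjusted p = 0.0495). The other 20 changed sign, in genes without a call as reported, and the cause was not tested. After quantile normalization these were insra (-0.039), osr2 (-0.041), nfe2l2a (0.0057), hmgcrb (0.038), cpt1ab (0.025), mcm5 (0.10) and PPARG (0.090), and after median-of-ratios scaling mcm5 (0.0080). With 1 library left out, differences ran from -0.0037 to 0.049 for insra, -0.27 to 0.28 for osr2, -0.10 to 0.026 for cpt1ab, -0.016 to 0.34 for col1a2, -0.10 to 0.071 for mcm5, -0.0066 to 0.33 for meis1b, -0.19 to 0.28 for ndrg1a and -0.20 to 0.031 for PPARG. Of the list counts, 36 moved by over 1.5 times outside leaving out a library, 13 of them with no filter and 18 with a minimum of 5 TPM, which change the genes tested. With no filter, 20 Wnt genes were higher in place of 12, 22 mesoderm factors in place of 14, 4 hepatocyte markers in place of 2, and 7 leukocyte markers were lower in place of 3. Otherwise, 4 interferon genes were lower in place of 10 and 1 hepatocyte marker higher in place of 2 in the fit of all 8 libraries, 2 replication genes were lower in place of 4 after quantile normalization, and 20 ribosomal genes were higher in place of 31 with no filter or no trend. Depth is unknown, so how far low values are limited by counting could not be judged.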

Other observations

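Outside the fixed lists, further genes were far apart between the lines, and those named here were chosen after their values were seen. The melanosome gene MLANA was at 90.2 and 95.7 TPM in CFL, against 0 and 0.52 TPM in SFL, a difference of 6.25 in log2 units (SE 0.213, limma adjusted p = 1.47e-05), and at 83.8 and 97.5 TPM in CFL, against 0.97 and 0.36 TPM in SFL in large spheroids. The other pigment cell genes named here were at or near 0 in both lines, and no list of such genes was counted. The master factor mitfa was listed at 0 in all 8 libraries. The fibril gene pmela was at 0.01 and 0.04 TPM in CFL, and tyr, tyrosinase, at 0 and 0.03 TPM in CFL, each against 0 TPM in both SFL libraries. The peptide hormone gene pyyb was at 68.5 and 76.7 TPM in CFL, against 0.58 and 1.28 TPM in SFL, and eya2, an eyes absent cofactor, at 52.7 and 61.3 TPM in CFL, against 0.51 and 0.41 TPM in SFL. On the SFL side, the membrane pit gene cav1, caveolin, was at 4.27 and 9.86 TPM in CFL, against 426 and 429 TPM in SFL.

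A gene named nanos1 (ENSAMXG00000030027) was listed at 0 in every library except CFL at 25000 cells, where it was at 65.9 TPM. A second gene of that name (ENSAMXG00000043091) was at 87.6 and 12.2 TPM in small CFL spheroids and listed at 0 in all SFL libraries. Of the 9023 called genes, 40 pointed the opposite way in large spheroids with no overlap of the lines at either size. The same held for 168 of all 14024 tested genes, called or not. The adjusted test of the difference between sizes was passed by none of the 40. Among the 40 was 1 of 3 genes listed as asns, asparagine synthetase (ENSAMXG00000035392), at 406 and 382 TPM in CFL, against 286 and 270.2 TPM in SFL in small and 294 and 294 TPM in CFL, against 366 and 373 TPM in SFL in large spheroids, where the difference between sizes had a limma adjusted p of 0.105.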
